A study of Mus musculus with 9 samples.

Results

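Malat1, Neat1, Kcnq1ot1, Gas5, Snhg1, Snhg3 and Snhg5 are 7 noncoding RNAs that were picked by name from the 23337 genes counted in CD11b+ bone marrow cells of 9 mice. All 7 passed the filter on low counts, as did 12553 genes in all. They were chosen as abundant noncoding RNAs, and the label held for some of them only. Malat1 had the mean level of rank 10 and Neat1 that of rank 131 among the 12553 genes, whereas Snhg1 and Snhg3 lay at percentiles 37.5 and 19.7.

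Male C57BL/6 mice, aged 3 to 6 weeks per the study's methods, received 3 tail vein injections 48 h apart, and marrow of the femurs and tibias was collected 24 h after the last one. The PBS group (n = 3) received vehicle. The EnzR EV group (n = 3) received 10 µg of protein per injection of extracellular vesicles from enzalutamide resistant CWR-R1 cells, a human prostate cancer line. The EnzR EV + HDL NP group (n = 3) received the same vesicles and, on alternate days, 3 injections of high-density lipoprotein-like nanoparticles (HDL NPs), which act on cell cholesterol. Their dose stands as 1 µM in the sample labels and as 100 µM in the methods. Red cells were lysed and CD11b+ cells were selected with magnetic beads, and CD11b marks neutrophils, monocytes and their precursors alike, so each library is a mixture. The comparisons ask whether the vesicles alter gene expression in marrow myeloid cells and whether HDL NPs modify this.

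Stranded total RNA was sequenced after rRNA depletion, 1 library per mouse. Total counts were between 2575776 and 18110561. Rn45s, the precursor of the ribosomal RNAs, still held from 0.657% to 42.7% of the counts, and the 3 libraries with the highest share were PBS 1 (20.3%), EnzR EV 1 (42.7%) and EnzR EV 3 (14.2%). These were also the 3 shallowest libraries, with 6006087, 2575776 and 8554487 counts, so that rRNA share and depth cannot be told apart. Of 12 myeloid markers, 11 were counted and none of these was at 0 in any library. Their summed level was between 20457 and 48455 CPM (reads relative to the scaled library size) in the 3 libraries rich in Rn45s and between 62284 and 123937 CPM in the other 6. B cell, T and NK cell, erythroid and stromal marker lists each summed to at most 99.7 CPM in every library, and platelet and megakaryocyte markers summed to between 115 and 219 CPM. The globin genes Hba-a1 and Hbb-b1 were listed at 0 in all 9, while the erythroid genes Slc4a1 (6.59 to 31.6 CPM) and Alas2 (5.55 to 26.6 CPM) were counted in every library, so the zeros of the globins are not read as a measure of erythroid cells.

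Malat1 and Neat1 are nuclear RNAs transcribed from neighbouring genes. Malat1 resides in nuclear speckles, where splicing factors are stored, and Neat1 is the RNA scaffold of paraspeckles. Gas5, Snhg1, Snhg3 and Snhg5 are small nucleolar RNA (snoRNA) host genes. Their introns carry snoRNAs, a class of which many members, but not all, guide the modification of ribosomal RNA. The spliced host RNAs are short-lived because translation of their small reading frames exposes them to nonsense-mediated decay. Kcnq1ot1 is an imprinted RNA expressed from the paternal allele, which silences neighbouring genes in cis.

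On GRCm38, the assembly of mm10, GENCODE M21 places Malat1 at chr19:5795690-5802672 and Neat1 at chr19:5824708-5845478, both on the minus strand, with 22035 bases between them. Snhg1 lies on the same chromosome at chr19:8723475-8726443 on the plus strand. Gas5 lies at chr1:161034422-161038539 on the plus strand, Snhg3 at chr4:132348014-132353686 on the minus strand and Snhg5 at chr9:88521050-88522929 on the minus strand. Kcnq1ot1, at chr7:143203458-143296549 on the minus strand, is antisense to Kcnq1, a potassium channel gene with 0 to 2 counts per library. Snhg3 shares 13.7% of its annotated exon bases with Rcc1 on the same strand and 71.5% with a noncoding gene on the opposite strand, and the strand setting of the counting is not given in the sources used here, so its counts are uncertain.

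Start regions of the 4 host genes are shown because spliced host RNAs of this class are known for start sites within a tract of pyrimidines. Each window spans 50 bases before to 50 bases after a RefSeq start (GRCm38.p6) and is written 5′ to 3′ on the gene's strand. Capitals mark a C followed by at least 4 pyrimidines, found within 10 bases of the start, or the letters TATAAA, searched on both strands between 40 and 11 bases before the start. Gas5 has a second RefSeq start, without either motif, that is not shown. The windows are Gas5 chr1:161035116-161035215, Snhg1 chr19:8723437-8723536, Snhg3 chr4:132353637-132353736 and Snhg5 chr9:88522848-88522947.
Gas5: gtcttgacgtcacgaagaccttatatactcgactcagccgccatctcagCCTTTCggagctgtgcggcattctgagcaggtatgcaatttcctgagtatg
Snhg1: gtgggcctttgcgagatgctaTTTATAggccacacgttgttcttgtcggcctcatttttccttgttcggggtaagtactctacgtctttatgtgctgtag
Snhg3: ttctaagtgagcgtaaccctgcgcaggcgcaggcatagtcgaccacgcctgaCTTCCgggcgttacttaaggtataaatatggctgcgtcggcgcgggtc
Snhg5: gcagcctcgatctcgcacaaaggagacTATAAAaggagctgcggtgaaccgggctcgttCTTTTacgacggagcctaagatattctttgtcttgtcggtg

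The pyrimidine tract as defined here was present in Gas5, Snhg3 and Snhg5 and was found in 29.7% of the 32851 promoters in the RefSeq table. Snhg1 has a run of pyrimidines, tttttcctt, shortly after its start. The rule did not mark this run, since it asks for a C followed by at least 4 pyrimidines. TATAAA was present in Snhg5 and, on the reverse strand, in Snhg1, and was found in 2.66% of these promoters. Neither motif was found in the windows of Malat1 and Kcnq1ot1, and Neat1 had no entry.

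Among the snoRNAs that lie within the host genes, Snord22, inside Snhg1, and Snord47, inside Gas5, were counted as genes of their own and passed the filter. Both are box C/D snoRNAs by name, and their sequences (GENCODE M21, plus strand) are shown because the reads of Snord22 and of its host are set side by side below. Capitals mark TGATGA in the first 20 bases and CTGA in the last 20 bases, on the RNA's own strand. Snord22 spans chr19:8725866-8725991 and Snord47 spans chr1:161038082-161038158.
Snord22: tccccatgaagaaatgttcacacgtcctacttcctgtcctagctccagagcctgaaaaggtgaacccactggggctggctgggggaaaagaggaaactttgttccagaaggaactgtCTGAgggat
Snord47: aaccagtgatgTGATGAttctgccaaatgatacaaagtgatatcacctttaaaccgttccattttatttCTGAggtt

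Snord22 has 126 bases, with the second motif only, and Snord47 has 77 bases, with both. Among the 1507 snoRNA transcripts annotated, TGATGA was found in 21.7% and CTGA in 35.4%.

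Malat1 was the most abundant of the 7 RNAs. Levels are in CPM, the reads of a gene relative to all reads of its library, after scaling by TMM factors that align the bulk of the genes between libraries. Malat1 was at 4128, 3865 and 4312 CPM in PBS mice 1 to 3, 5925, 3798 and 5678 CPM in EnzR EV mice, and 4579, 5255 and 7730 CPM in EnzR EV + HDL NP mice. The PBS mice were close together, EnzR EV 2 lay below all of them, and the highest value came from EnzR EV + HDL NP 3. Neat1 was at 482, 476 and 580 CPM in PBS mice, 812, 399 and 933 CPM in EnzR EV mice, and 627, 687 and 939 CPM in EnzR EV + HDL NP mice. The lowest and the highest libraries for Neat1 were the same as for Malat1, EnzR EV 2 and EnzR EV + HDL NP 3, although Neat1 in EnzR EV 3 was nearly as high.

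Among the snoRNA hosts, Gas5 was the most abundant. Its level was 58.7, 47.9 and 58.9 CPM in PBS mice, 26.9, 45.5 and 50.8 CPM in EnzR EV mice, and 72.5, 55.7 and 58.1 CPM in EnzR EV + HDL NP mice. EnzR EV 1 stood below all other libraries with 49 counts, a level with a 95% exact Poisson interval of 19.9 to 35.5 CPM, which covers counting error only. Snhg5 was at 25.3, 13.3 and 15.7 CPM in PBS mice, 32.3, 14.99 and 17.0 CPM in EnzR EV mice, and 19.7, 16.0 and 18.0 CPM in EnzR EV + HDL NP mice. Its highest values belonged to EnzR EV 1 and PBS 1, the 2 libraries with the highest Rn45s shares.

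Snhg1 was at 6.68, 9.77 and 13.2 CPM in PBS mice, 3.84, 10.2 and 7.09 CPM in EnzR EV mice, and 14.96, 11.3 and 10.4 CPM in EnzR EV + HDL NP mice. Its lowest values came from the 3 libraries rich in Rn45s, whereas for Snhg5 only PBS 1 and EnzR EV 1 among them stood highest. Depth limited Snhg1, since EnzR EV 1 held 7 counts of it, a level with a 95% exact Poisson interval of 1.54 to 7.91 CPM for counting error. Snhg3 was the least abundant, with 2.29, 2.70 and 3.20 CPM in PBS mice, 4.39, 2.61 and 3.07 CPM in EnzR EV mice, and 2.76, 2.98 and 2.09 CPM in EnzR EV + HDL NP mice. Its highest value, in EnzR EV 1, rested on 8 counts.

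Kcnq1ot1 was at 62.4, 60.0 and 66.4 CPM in PBS mice, 70.7, 51.5 and 53.4 CPM in EnzR EV mice, and 76.9, 41.9 and 95.3 CPM in EnzR EV + HDL NP mice. The PBS mice agreed closely, with an SD of 3.21 CPM around a mean of 62.9 CPM, whereas the SD was 27.2 CPM around 71.4 CPM in the EnzR EV + HDL NP group (n = 3 each).

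**Figure D1:**
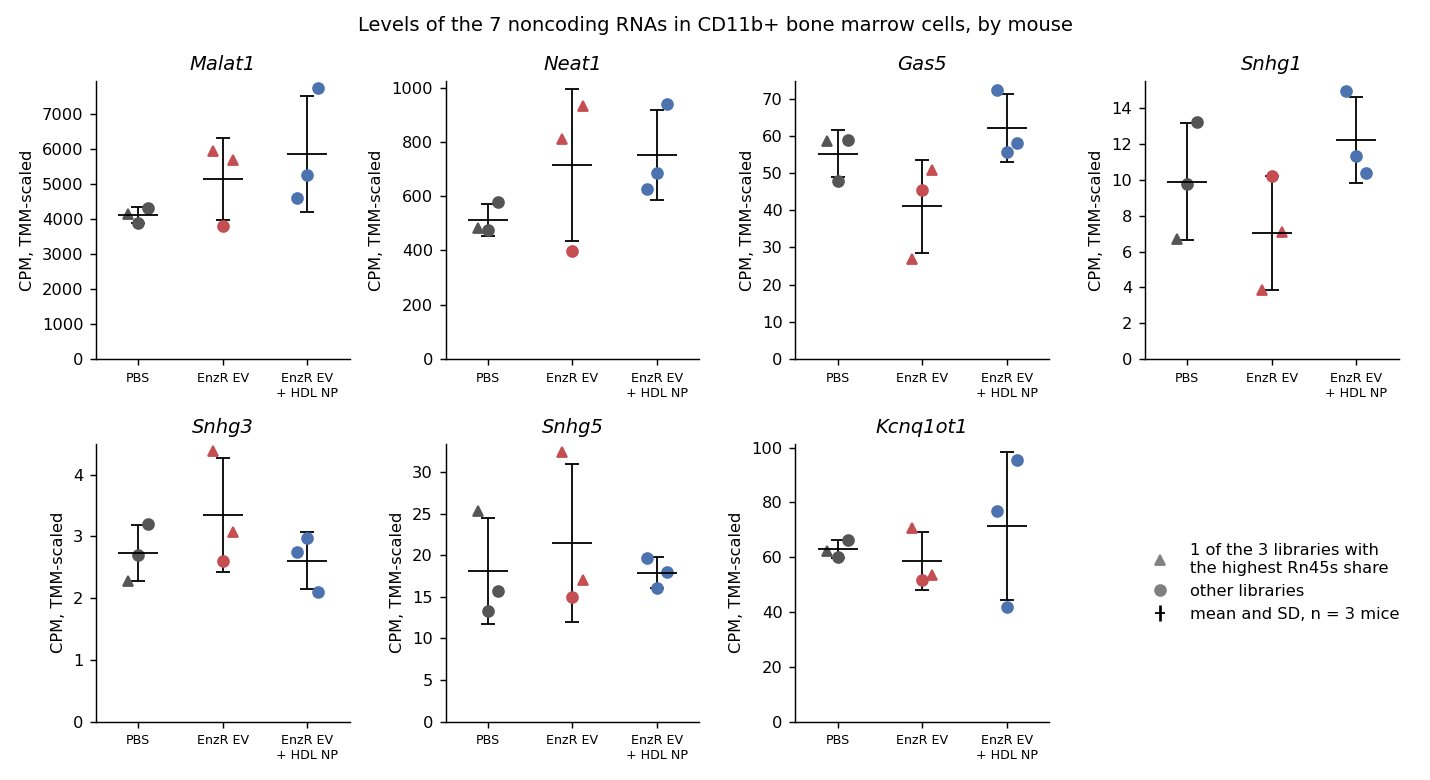
Levels of the 7 noncoding RNAs in CPM scaled by TMM factors (y axes, from 0) in each mouse of the 3 groups (x axes), with the mean and SD over 3 mice. Triangles mark PBS 1, EnzR EV 1 and EnzR EV 3, which lie at 3.84 to 7.09 CPM for Snhg1, below the 9.77 to 14.96 CPM of the other 6.

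Levels were compared between the RNAs per kilobase (kb) of the longest annotated transcript. Malat1 had from 544 to 1107 CPM per kb, with a median of 656, above the ranges of all others. Neat1 had from 19.2 to 45.2 CPM per kb of its long isoform. This range overlapped that of Gas5, 10.5 to 28.4 CPM per kb, and that of Snhg5, 10.9 to 26.5 CPM per kb.

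Snhg3, at 3.60 to 7.55 CPM per kb, was below these 3 and overlapped with Snhg1, at 1.41 to 5.48 CPM per kb. Kcnq1ot1 came last with 0.450 to 1.02 CPM per kb of its 93092 bases. If only the short Neat1 isoform of 3004 bases is taken as the length, Neat1 had 133 to 313 CPM per kb, still below Malat1. The counts do not separate the isoforms. The placing of the snoRNA hosts depends on the length taken. Per kb of the longest transcript the means of Snhg3 and Snhg1 were 4.99 and 3.56 CPM, and per kb of all annotated exon bases 2.94 and 3.27 CPM. Per kb of the shortest annotated transcript, means were 153 CPM for Gas5, 43.5 for Snhg5, 31.1 for Snhg1 and 8.73 for Snhg3. On that length Malat1 had 10371 CPM and Neat1 928 CPM per kb.

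The spread over all 9 libraries was moderate for each RNA. The highest level was between 2.04 times (Malat1) and 3.90 times (Snhg1) the lowest. The coefficient of variation over the 9 libraries was between 22.9% (Snhg3) and 35.2% (Snhg1), and the median over all genes tested was 25.8%.

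Conditioning with EnzR EVs alone was compared with PBS first. None of the 7 RNAs differed between these groups beyond the spread between mice. Malat1 and Neat1 had higher means with the vesicles (log2 fold changes of 0.32, SE 0.25, and 0.48, SE 0.29), and Gas5 and Snhg1 lower means (-0.40, SE 0.23, and -0.39, SE 0.34). Snhg3 and Snhg5 had differences of 0.17 (SE 0.33) and 0.19 (SE 0.32), and Kcnq1ot1 of -0.12 (SE 0.27).

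In edgeR's quasi-likelihood test with Benjamini-Hochberg adjustment, 0 of the 7 passed at 0.05, with adjusted p between 0.928 and 0.998, and 0% of the 12553 genes passed. In the same edgeR test, the RNAs at an unadjusted p under 0.05 also numbered 0, against 3.47% of all genes, and after adjustment DESeq2 called 0 of the 7 and 8 genes in all, and limma's voom 0 of both. The groups did not overlap for 0 of the 7 and for 7.96% of all genes. The median log2 fold change of the 7 was 0.17, beside -0.03 over all genes tested. In bulk samples such as these, fewer cells of a type and less RNA per cell cannot be told apart.

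Gas5 and Snhg1 kept negative log2 fold changes when any 1 library was left out, from -0.58 to -0.19 for Gas5, the latter without EnzR EV 1, and from -0.73 without EnzR EV 2 to -0.13 without PBS 3 for Snhg1, which was at -0.20 without EnzR EV 1. Snhg5 did not keep its sign, with log2 fold changes from -0.15 to 0.48 when 1 library was left out. Malat1, Neat1 and Snhg3 kept positive log2 fold changes when any 1 library was left out (at least 0.21, 0.22 and 0.024) and with the Rn45s share as a covariate (0.14, 0.21 and 0.14). Without PBS 1, EnzR EV 1 and EnzR EV 3 together, they were -0.10, -0.40 and -0.17, values that rest on EnzR EV 2 as the only mouse left in its group, the lowest library for Malat1 and Neat1, with its spread taken from the other groups. With sample quality weights in limma's voom, Neat1 passed (log2 fold change 0.71, adjusted p = 0.0279), the lowest of adjusted p values between 0.0279 and 1.00 over the alternatives, and 1990 genes passed with it. In that fit Malat1 was at 0.43 (unadjusted p = 0.0130, adjusted p = 0.0642), Gas5 at -0.12 and Snhg1 at -0.58 (unadjusted p = 0.0363, adjusted p = 0.114).

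Marker genes of cell types also had mostly negative log2 fold changes for EnzR EVs against PBS. Of those tested, 8 of 8 B cell, 4 of 4 T and NK cell, 4 of 5 erythroid, 5 of 6 platelet, 4 of 6 stromal and 8 of 11 myeloid markers were below 0, with medians of -0.83, -0.45, -0.80, -0.25, -0.32 and -0.25. None passed after adjustment in edgeR, and the B cell genes Pax5 (-2.29, SE 0.67), Jchain (counted as Igj, -1.77, SE 0.73) and Cd79b (-1.01, SE 0.45) and the erythroid gene Alas2 (-1.25, SE 0.52) had an unadjusted p under 0.05, beside 3.47% of all genes. In EnzR EV mice the summed level was 10.4 to 30.7 CPM for the B cell, 13.7 to 18.2 CPM for the T and NK cell and 16.2 to 53.2 CPM for the erythroid markers. It was 115 to 191 CPM for the platelet and 46.6 to 90.1 CPM for the stromal markers. The sums in PBS mice are given with the next comparison. Pax5 and Cdh5 were at 0 in EnzR EV 1, Cd3e was at 0 in EnzR EV 3, and the globins were at 0 throughout. The part of these cell types in the result was not tested.

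With EnzR EVs and HDL NPs together, Malat1 and Neat1 stood above PBS in 3 of 3 mice. The lowest of the 3 treated mice had 4579 CPM of Malat1, against 4312 CPM in the highest PBS mouse, and 627 CPM of Neat1, against 580 CPM. The mean of Malat1 was 5855 ± 1659 CPM (SD, n = 3) with treatment and 4102 ± 225 CPM (SD, n = 3) with PBS, a log2 fold change of 0.51 (SE 0.25). For Neat1 the means were 751 ± 166 CPM and 513 ± 58.2 CPM (SD, n = 3 each), a log2 fold change of 0.55 (SE 0.29).

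Each of these separations has a two-sided exact permutation p of 0.1, the smallest that 3 against 3 allows, and groups separated in this direction for 6.96% of all genes tested. Neither passed edgeR's quasi-likelihood test with Benjamini-Hochberg adjustment (unadjusted p = 0.0659 for Malat1 and unadjusted p = 0.0860 for Neat1, adjusted p = 1.00 for both). Of the 7 RNAs, 0 passed after adjustment, beside 0% of the 12553 genes. DESeq2 and limma's voom called 0 of the 7, and DESeq2 called 7 genes in all. In edgeR 0 of the 7 had an unadjusted p under 0.05, beside 2.13% of all genes. In DESeq2 Malat1 had one (unadjusted p = 0.0347), as had Malat1 (unadjusted p = 0.0096) and Neat1 (unadjusted p = 0.0204) in limma's voom with sample quality weights. The share of all genes under that threshold is given here for edgeR only, so these p values are not set against a background. Without EnzR EV + HDL NP 3, the highest library for both, the log2 fold changes were 0.26 for Malat1 and 0.36 for Neat1. The median log2 fold change of the 7 was 0.18, beside -0.01 over all genes tested.

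The other 5 RNAs overlapped between these groups. Gas5 (0.17, SE 0.23), Snhg1 (0.29, SE 0.32) and Kcnq1ot1 (0.18, SE 0.27) had positive log2 fold changes, Snhg3 a negative one (-0.08, SE 0.31), and Snhg5 was at 0.0025 (SE 0.31). Without the 3 libraries rich in Rn45s, the log2 fold changes were 0.52 for Malat1 and 0.51 for Neat1. Markers of other cell types had mostly negative log2 fold changes in this comparison, with 8 of 8 B cell, 6 of 6 platelet, 5 of 5 erythroid, 4 of 4 T and NK cell and 5 of 6 stromal markers tested below 0, and medians of -0.84, -0.61, -0.70, -0.30 and -0.26. None passed after adjustment in edgeR, and 1 B cell marker had an unadjusted p under 0.05, beside 2.13% of all genes. The summed level of the B cell markers was 21.7 to 32.9 CPM in PBS mice and 9.6 to 26.5 CPM in EnzR EV + HDL NP mice, with none at 0. That of the platelet markers was 122 to 219 CPM and 122 to 178 CPM, with none at 0, and that of the erythroid markers 48.2 to 58.8 CPM and 20.1 to 63.4 CPM, with both globins at 0. T and NK cell markers summed to 19.9 to 25.8 CPM and 15.1 to 27.7 CPM, with Cd3e at 0 in 2 of 3 mice of each group, and stromal markers to 36.6 to 99.7 CPM and 58.6 to 73.3 CPM, with none at 0. The part of these cell types in the result was not tested.

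The last comparison set EnzR EVs with HDL NPs against EnzR EVs alone. Here the separation lay in the snoRNA hosts Gas5 and Snhg1, which were higher in 3 of 3 mice given HDL NPs than in any mouse given the vesicles alone. The margins were narrow. The lowest mouse with HDL NPs had 55.7 CPM of Gas5, against 50.8 CPM in the highest mouse without. For Snhg1 these were 10.4 and 10.2 CPM. The 95% exact Poisson intervals for counting error overlapped. They were 52.2 to 59.4 and 46.1 to 55.8 CPM for Gas5, and 8.80 to 12.2 and 8.82 to 11.8 CPM for Snhg1. Gas5 was at 62.1 ± 9.08 CPM with HDL NPs and 41.0 ± 12.6 CPM without (SD, n = 3 each), a log2 fold change of 0.57 (SE 0.23). Snhg1 was at 12.2 ± 2.41 CPM and 7.04 ± 3.19 CPM (SD, n = 3 each), a log2 fold change of 0.68 (SE 0.34).

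The exact permutation p was 0.1 for each, two-sided, and groups separated in this direction for 8.99% of all genes. In edgeR, Gas5 was the only 1 of the 7 with an unadjusted p under 0.05 (unadjusted p = 0.0311), beside 10.6% of all genes, and after adjustment edgeR's quasi-likelihood test gave adjusted p = 0.461 for Gas5 and for Snhg1. After adjustment, 0 of the 7 and 0 of the 12553 genes passed. DESeq2 called 0 of the 7 and 1 gene in all, and limma's voom 0 of both. With sample quality weights in limma's voom, Gas5 was at 0.31 (unadjusted p = 0.101) and Snhg1 at 0.68 (unadjusted p = 0.0290). The share of all genes at an unadjusted p under 0.05 is not given for the fit with these weights. The genes it called after adjustment are counted in the section on processing. With the Rn45s share as a covariate in edgeR, Gas5 was at 0.46 and Snhg1 at 0.22. Snhg5 and Snhg3 had negative log2 fold changes (-0.19, SE 0.32, and -0.26, SE 0.33), while Malat1 (0.19, SE 0.25), Neat1 (0.07, SE 0.29) and Kcnq1ot1 (0.30, SE 0.27) had positive ones, all with overlapping groups. When 1 library was left out, Malat1 went as low as -0.08, Neat1 as low as -0.24 and Kcnq1ot1 as low as 0.0096. Snhg5 went as high as 0.16, and Snhg3 stayed negative. The median of the 7 was 0.19, beside 0.03 over all genes.

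Rn45s moved with this contrast, since its share was 1.15% to 42.7% in EnzR EV mice and 0.657% to 2.87% in those given HDL NPs as well. Without EnzR EV 1, the lowest library for both, the log2 fold changes were 0.36 for Gas5 and 0.48 for Snhg1. Without the 3 libraries rich in Rn45s, EnzR EV 2, the lowest library for Neat1 and Malat1, stood alone for its group with its spread taken from the other groups. There the log2 fold change was 0.45 for Gas5 and 0.26 for Snhg1, while that of Neat1 was 0.91 in place of 0.07 and that of Malat1 0.62. Of the 11 myeloid markers tested, 9 were above 0 in this contrast, with a median log2 fold change of 0.27 beside 0.03 over all genes, while the granule genes of early neutrophil precursors Mpo (-0.96, SE 0.32, unadjusted p = 0.0131) and Elane (-0.63, SE 0.30, and -0.34 without EnzR EV 3) were the other 2, and none passed after adjustment in edgeR. The summed level of the myeloid markers was 20457 to 103949 CPM in EnzR EV mice and 62284 to 123937 CPM with HDL NPs, with none at 0. Among other markers tested, 4 of 4 T and NK cell, 4 of 5 erythroid, 4 of 6 platelet, 4 of 6 stromal and 4 of 8 B cell genes were above 0. Their medians were 0.13, 0.14, 0.15, 0.21 and 0.08. In edgeR 0 of these had an unadjusted p under 0.05, beside 10.6% of all genes. The part of all these cell types in the result was not tested. The 2 comparisons with EnzR EV mice and the 2 with PBS mice share libraries and are not independent of each other.

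**Figure D2:**
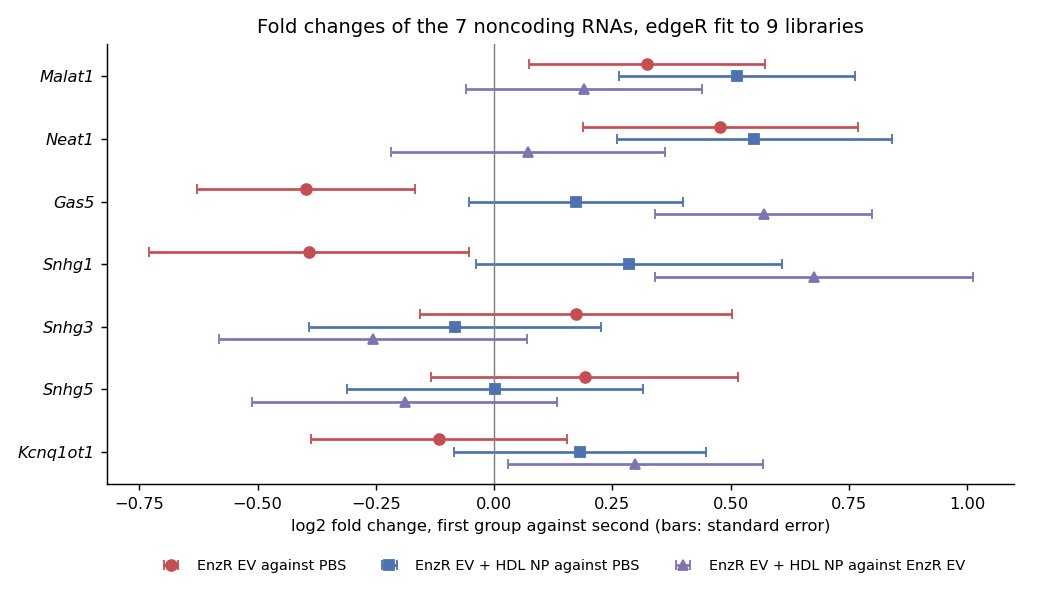
Log2 fold changes (x axis) of the 7 RNAs (y axis) in the 3 comparisons, from the edgeR fit to 9 libraries, with bars of 1 standard error. The estimates lie between -0.40 (Gas5, EnzR EV against PBS) and 0.68 (Snhg1, EnzR EV + HDL NP against EnzR EV), and none passed after adjustment.

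The levels were next set against the Rn45s share of the library, as the change in log2 level per doubling of the share, in a fit that kept a term for the group. Snhg1 fell and Snhg5 rose with the share. The slope was -0.20 (SE 0.05, adjusted p = 0.0157 by edgeR's quasi-likelihood test) for Snhg1 and 0.17 (SE 0.05, adjusted p = 0.0192) for Snhg5. Thus 1 of 7 was called in each direction, where 12.8% of the 12552 genes tested were called higher with the share and 14.6% lower, so the count of the members was near that of all genes. Neat1 (0.13, adjusted p = 0.110), Malat1 (0.10, adjusted p = 0.125), Kcnq1ot1 (0.07, adjusted p = 0.316), Gas5 (-0.03, adjusted p = 0.667) and Snhg3 (-0.01, adjusted p = 0.965) did not pass in the same test.

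For Snhg1, the 3 libraries rich in Rn45s were at 3.84 to 7.09 CPM and the other 6 at 9.77 to 14.96 CPM, with no overlap. For Snhg5, PBS 1 and EnzR EV 1 were above the 13.3 to 19.7 CPM of the other 6 libraries, and EnzR EV 3, at 17.0 CPM, was within it. Neither was called within the 6 libraries with the lowest shares alone. There, without a group term, the slope was -0.18 for Snhg1, near that over 9 libraries (adjusted p = 0.683 in edgeR's quasi-likelihood test), and -0.02 for Snhg5 (adjusted p = 0.964).

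Leaving out 1 library ended the call of Snhg1 for PBS 1 (slope -0.20, adjusted p = 0.0713), PBS 3 (-0.17, adjusted p = 0.0553) and EnzR EV 2 (-0.20, adjusted p = 0.123), and that of Snhg5 for PBS 1 (0.14, adjusted p = 0.140), EnzR EV 1 (0.12, adjusted p = 0.0682) and EnzR EV 2 (0.20, adjusted p = 0.0975), by edgeR's quasi-likelihood test. The call of Snhg5 also ended with the replicate number as a block. Its slope was lower there and with library size only, as given in the section on processing. Neat1 passed without PBS 1 (0.22, adjusted p = 0.0218) and without PBS 3 (0.17, adjusted p = 0.0424). The myeloid markers S100a8 (slope -0.65), S100a9 (-0.59), Ly6c2 (-0.37) and Csf3r (-0.17) also fell with the share in this fit, 4 of 11 tested beside 14.6% of all genes, and their part in the slopes was not tested.

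**Figure D3:**
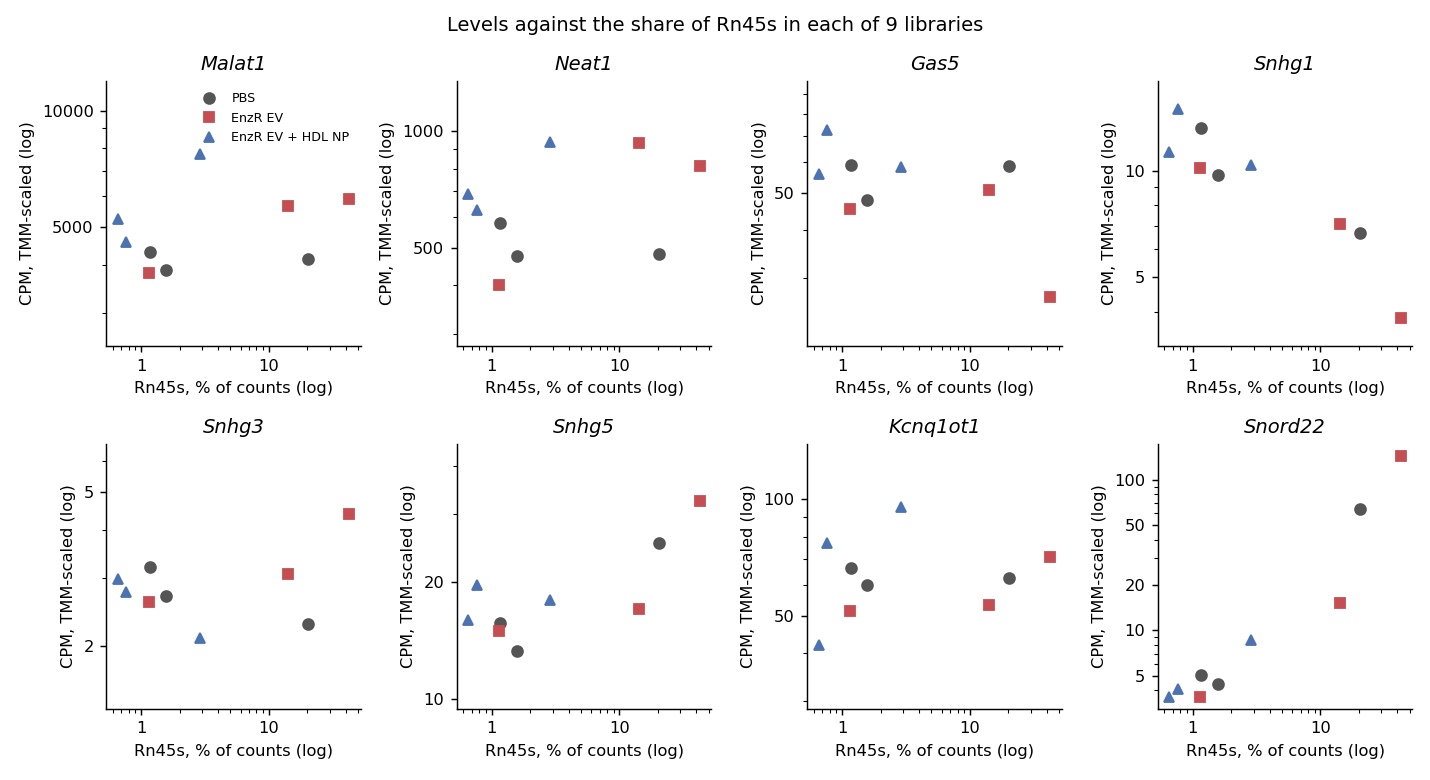
Level of each RNA and of Snord22 in CPM scaled by TMM factors (y axes, log) against the percentage of the library's counts on Rn45s (x axes, log), with 1 point per mouse and the 3 groups by symbol. Snhg1 lies between 3.84 and 14.96 CPM, with its lowest value at the highest share. Snord22 lies between 3.62 and 144 CPM, with its highest value at the highest share. The 6 libraries at 0.657% to 2.87% form a cluster at the left.

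Snord22 and its host went opposite ways with the Rn45s share. Snord22 had 64.2, 4.43 and 5.03 CPM in PBS mice, 144, 3.62 and 15.2 CPM in EnzR EV mice, and 4.11, 3.63 and 8.58 CPM in EnzR EV + HDL NP mice. The 3 libraries rich in Rn45s were the 3 highest, in the order of their shares, and the highest was 39.9 times the lowest. The slope was 0.94 (SE 0.09, adjusted p = 2.57e-05 in edgeR's quasi-likelihood test), rank 27 of the 12552 genes. It was 0.54 in the 6 libraries with the lowest shares (adjusted p = 0.255) and between 0.80 and 0.99 when any library was left out. Snord22 was singled out after its values were seen, so its p value and rank are descriptive. Of 49 tested genes named Snord, Snora or Scarna, 21 rose with the share, Snord22 among them, beside 12.8% of all genes. The rise was thus not particular to Snord22.

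The number of Snord22 reads per Snhg1 read was 9.61, 0.453 and 0.381 in PBS mice, 37.6, 0.354 and 2.15 in EnzR EV mice, and 0.274, 0.321 and 0.826 in EnzR EV + HDL NP mice. Reads of the snoRNA thus outnumbered those of its host in the 3 libraries rich in Rn45s and were fewer in the other 6. These are reads, without regard to the length of either RNA. Snord47, inside Gas5, did not share the pattern. Its slope was -0.04 (adjusted p = 0.840 in the same edgeR test), and EnzR EV 1 had 0 counts of it, where 3 counts would correspond to 1.64 CPM.

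**Figure D4:**
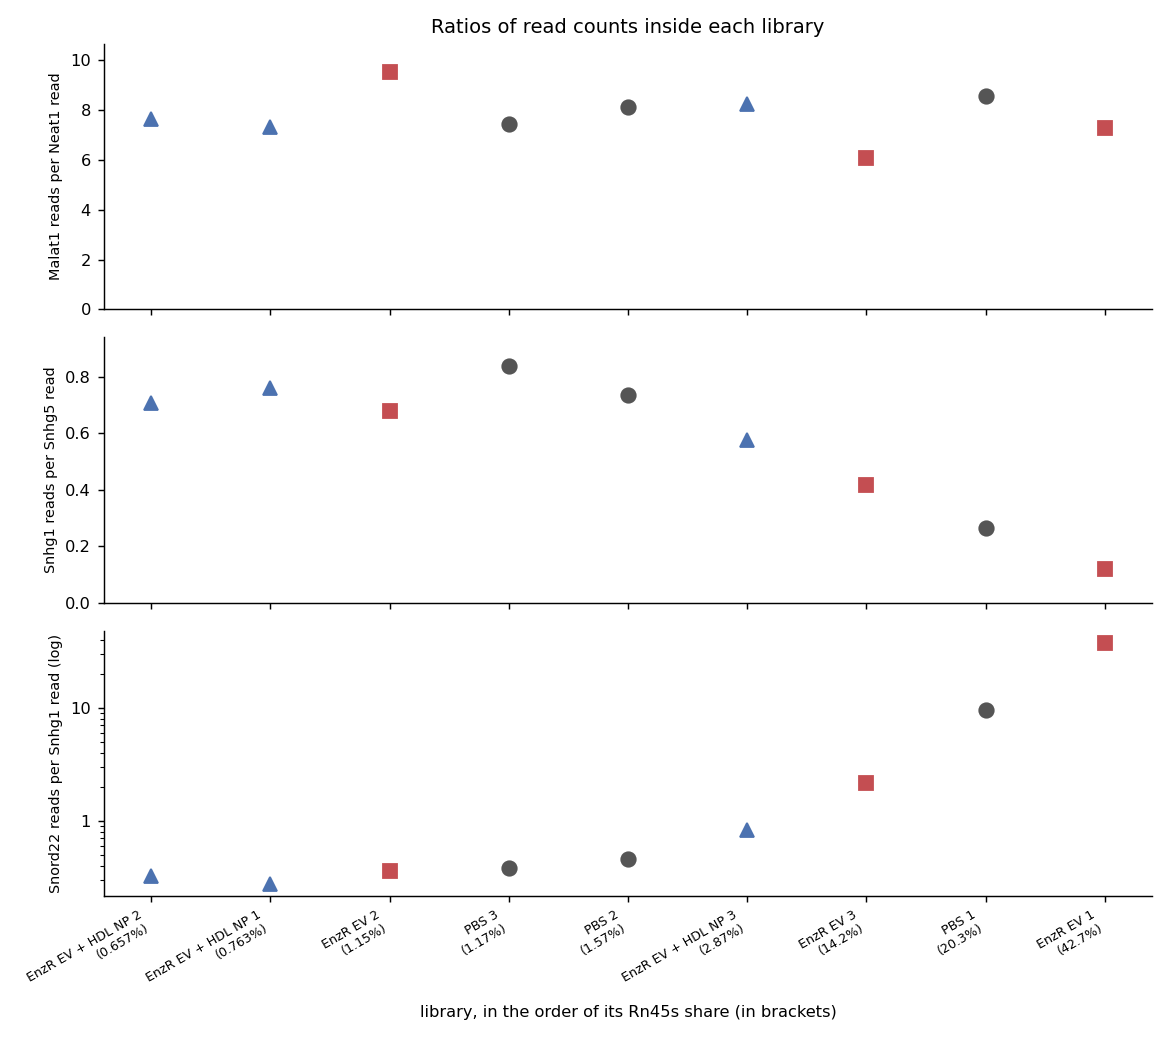
Read counts of 1 RNA per read of another inside each library (y axes, the lowest panel on a log scale), with libraries on the x axis in the order of their Rn45s share and 1 point per mouse. Malat1 reads per Neat1 read stay between 6.09 and 9.51, Snhg1 reads per Snhg5 read are between 0.119 and 0.84, and Snord22 reads per Snhg1 read are between 0.274 and 37.6.

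Ratios inside a library do not depend on its scaling. Malat1 had between 6.09 and 9.51 reads per Neat1 read, with the lowest ratio in EnzR EV 3 and the highest in EnzR EV 2. Snhg1 had from 0.119 to 0.84 reads per Snhg5 read, with the 3 libraries rich in Rn45s the lowest at 0.119, 0.264 and 0.417. Of the reads on the 4 hosts together, Gas5 held 39.8% in EnzR EV 1 and between 62.0% and 66.0% in the other 8 libraries. Snhg5 held 47.97% in EnzR EV 1, from 17.3% to 27.2% elsewhere.

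Across the 9 libraries, log2 levels of Malat1 and Neat1 had a Pearson r of 0.93, and 0.95 in the 6 libraries with low Rn45s shares. Gas5 and Snhg1 had an r of 0.82, and 0.87 in the 6. Gas5 and Snhg5 had an r of -0.46 over 9 libraries but 0.87 over the 6, and Snhg1 and Snhg5 of -0.72 and 0.68. These are descriptions over libraries that share depth and rRNA share with their neighbours, and they carry no test.

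The genes most like each RNA over the 9 libraries were chosen by the highest r of log2 CPM among all genes tested. For Malat1 these were Scai (0.94), E330033B04Rik (0.93) and Neat1 (0.93), and for Neat1 they were Malat1, Nacad (0.91) and Rps13 (0.90). Gas5 was most like Mllt11 (0.97), Pcyt1b (0.97) and Zbtb8a (0.95). Snhg1 was most like Lrig2 (0.98), the splicing regulator Bclaf1 (0.98) and the cytokine receptor kinase Jak2 (0.98).

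Snhg3 was most like Zfp787 (0.96), the metal transporter Slc39a14 (0.94) and the Mediator subunit Med22 (0.94). For Snhg5 the genes were Ppp1r3f (0.97), the cap methyltransferase Rnmt (0.97) and Cryba1 (0.97). For Kcnq1ot1 they were Eml5 (0.91), the ubiquitin ligase Huwe1 (0.89) and Elk4 (0.89).

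The other genes of the same pathways were read from lists. None of these lists had a gene past edgeR's quasi-likelihood test with Benjamini-Hochberg adjustment in the 3 group comparisons, where 0 genes passed in all. Slopes of the listed genes on the Rn45s share were not followed with a library left out. How far the counts of genes called with the share rest on single libraries was therefore not tested. Of 18 other noncoding snoRNA hosts, 15 were counted and 12 tested. Against PBS, 0 of the 12 had an unadjusted p under 0.05, beside 3.47% and 2.13% of all genes, with a median log2 fold change of 0.18 for EnzR EVs and -0.16 for EnzR EVs with HDL NPs. Snhg12 (-0.71, SE 0.40), Zfas1 (-0.47, SE 0.27) and Snhg6 (-0.56, SE 0.36) had the smallest p values with EnzR EVs, while 7 of the 12 were above 0 and 5 below, and Snhg16 (0.66, SE 0.44), Snhg7 (0.67, SE 0.58) and Snhg20 (0.75, SE 0.71) came next. When 1 library was left out, Snhg12 was between -1.37 and -0.48, Zfas1 between -0.62 and -0.29 and Snhg6 between -1.02 and -0.34, and Snhg7 and Snhg20 were at -0.16 and -0.26 without EnzR EV 1.

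In the comparison of EnzR EV + HDL NP with EnzR EV, Snhg6 had a log2 fold change of 0.72 (SE 0.36), Snhg16 of -0.83 (SE 0.43) and Snhg7 of -1.05 (SE 0.58), with 6 of the 12 above 0 and 6 below. Without EnzR EV 1, Snhg16 was at -0.54 and Snhg7 at -0.21, and Snhg6 was at 1.18 without EnzR EV 2. With the Rn45s share, 5 of the 12 rose and 0 fell, among them Snhg7 (slope 0.34), Epb41l4aos (0.48) and Snhg20 (0.40), beside 12.8% and 14.6% of all genes called higher and lower, and the median slope was 0.11 beside -0.01 over all genes. All 5 that were called went the way of Snhg5 and not that of Snhg1.

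Of 14 paraspeckle proteins, the partners of Neat1, all were tested and 0 had an unadjusted p under 0.05 in any group comparison, beside 3.47%, 2.13% and 10.6% of all genes, so that few or none would be past it at the background share. Ewsr1 (0.44, SE 0.29), Tardbp (0.32, SE 0.24) and the core protein Sfpq (0.32, SE 0.27) had the smallest p values for EnzR EVs against PBS. Without EnzR EV 1, Ewsr1 was at -0.017 and Sfpq at 0.15, and Tardbp was at 0.19 without EnzR EV 3. With the Rn45s share, 7 of the 14 rose, including Hnrnph3 (slope 0.42), Sfpq (0.18) and Rbm14 (0.15), and 0 fell, beside 12.8% and 14.6% of all genes.

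Of 17 nuclear speckle proteins, the compartment of Malat1, Srrm2 (0.55, SE 0.19) had the smallest p in EnzR EV + HDL NP against EnzR EV (unadjusted p = 0.0149, adjusted p = 0.461 by edgeR's quasi-likelihood test), and Snrnp70 lay on the other side (-1.47, SE 0.56). Without EnzR EV 1, Snrnp70 was at -0.48 and Srrm2 at 0.45. With the Rn45s share, 6 of the 17 rose, among them Pnn (0.28), Srsf2 (0.22) and Luc7l3 (0.20), and 0 fell, beside 12.8% and 14.6% of all genes.

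Nonsense-mediated decay factors, which limit the spliced host RNAs, were 12, all tested. Smg1, the kinase of the pathway, was at -0.37 (SE 0.23) for EnzR EVs against PBS and at 0.56 (SE 0.23) for EnzR EV + HDL NP against EnzR EV (unadjusted p = 0.0334 and adjusted p = 0.461 by edgeR's quasi-likelihood test for the latter). Without EnzR EV 1 these were -0.16 and 0.35. With the Rn45s share, Upf3a (0.24) and Smg6 (0.19) rose, 2 of 12, and 0 fell, beside 12.8% and 14.6% of all genes, so the rise was near the background.

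Of 16 snoRNP proteins and assembly factors, the partners of the snoRNAs, the methyltransferase Fbl was at 0.97 (SE 0.52) for EnzR EVs against PBS and at -1.39 (SE 0.52) for EnzR EV + HDL NP against EnzR EV (unadjusted p = 0.0222 and adjusted p = 0.461 by edgeR's quasi-likelihood test for the latter). Without EnzR EV 3 these were 0.63 and -1.05. Fbl was near the floor, at 0.48 to 2.74 CPM over the libraries. For EnzR EV + HDL NP against EnzR EV, 2 of the 16 had an unadjusted p under 0.05 in edgeR, beside 10.6% of all genes. With the Rn45s share, 3 of the 16 rose (Ncl, 0.21, Gar1, 0.51, and Rrp9, 0.28) and 2 fell (Nop10, -0.23, and Snu13, -0.23), beside 12.8% and 14.6% of all genes, so both counts were near the background.

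Of 13 other genes of the imprinted domain around Kcnq1ot1, 11 were tested, and 0 were called with the Rn45s share, beside 12.8% of all genes called higher and 14.6% lower. Ascl2, a transcription factor, had the smallest p for EnzR EVs against PBS (-0.85, SE 0.41), and Tssc4 that for EnzR EV + HDL NP against EnzR EV (-0.58, SE 0.24, unadjusted p = 0.0357). Cdkn1c, a cell cycle inhibitor silenced in cis by Kcnq1ot1 in the embryo, was at 1.18 (SE 0.58) for EnzR EVs against PBS and at -1.22 (SE 0.56) for EnzR EV + HDL NP against EnzR EV. Slc22a18 was at -1.25 (SE 0.52) for EnzR EV + HDL NP against PBS (unadjusted p = 0.0364, adjusted p = 1.00 by edgeR's quasi-likelihood test). These genes were near the floor, with Cdkn1c at 0.39 to 2.19 CPM, Ascl2 at 0.55 to 2.99 CPM and Slc22a18 at 0.14 to 0.86 CPM. Cdkn1c was highest and Ascl2 lowest in EnzR EV 1, where 3 counts correspond to 1.64 CPM. Silencing of Cdkn1c by Kcnq1ot1 was not tested here. The median log2 fold changes of the 11 genes tested were -0.15, -0.10 and -0.14 in the 3 comparisons.

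Other long noncoding RNAs, 10 tested of 20 listed, included Tug1, at 0.55 (SE 0.19) for EnzR EV + HDL NP against EnzR EV (unadjusted p = 0.0161, adjusted p = 0.461 by edgeR's quasi-likelihood test). Tug1 fell with the Rn45s share (slope -0.10), and Mir17hg (0.20), Norad (0.10), Dleu2 (0.14) and Peg13 (0.11) rose, beside 12.8% and 14.6% of all genes called higher and lower. Structural noncoding RNAs, 6 tested of 11 listed, were led by Rpph1, the RNA of RNase P, with -2.16 (SE 0.75) for EnzR EV + HDL NP against PBS and -2.04 (SE 0.75) against EnzR EV. Each value leaned on 1 library rich in Rn45s, since Rpph1 was at -0.64 without PBS 1 in the former and at -1.20 without EnzR EV 1 in the latter. With the share, 4 of the 6 rose, namely Terc (0.35), Rnu12 (0.69), Rpph1 (0.42) and Vaultrc5 (0.67), beside 12.8% of all genes.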

How the data were processed

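One library per mouse of CD11b+ bone marrow cells was analysed, 9 in all. The deposited values are whole-number read counts for each gene, which carry no normalization. Per the submitters' processing notes and the study's methods, adapters were trimmed (cutadapt 1.13), poor-quality and rRNA reads were removed, reads of 75 bp were aligned to mm10 with STAR (version not given in the sources used here) and counted with HTSeq 0.6.1p1 on a UCSC annotation. The study tested counts with DESeq2.

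The main test was edgeR 4.0.16 under R 4.3.3 (TMM factors, filterByExpr, robust quasi-likelihood fit to 9 libraries, Benjamini-Hochberg adjustment over all genes tested, threshold 0.05). DESeq2 1.42.0 and limma 3.58.1 were alternatives. The slope fit held group and log2 Rn45s share, with Rn45s left out of the genes tested. Standard errors (SE) are the log2 fold change over the root of its F statistic. The Poisson bound that edgeR sets on p by default raised the p of Snhg3 in both comparisons that use the EnzR EV group above the one its SE implies, and changed no count of genes called in the 3 group comparisons. Log2 CPM had a prior count of 2, and 3 counts correspond to between 0.16 and 1.64 CPM. Molecular identifiers were not used, so the Poisson intervals cover counting error only. Fits were tested on simulated data, and the outcome is not given here.

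Groups came from the sample titles. The members, the gene lists and the alternatives were chosen with earlier results of these data known. Genes named are the 7 RNAs, up to 3 genes per list with the smallest p in a comparison, the 3 genes most like each RNA, and others where a result turns on them. Snord22 was singled out after its values were seen. Of the 22 snoRNAs listed for the hosts, 2 were counted.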

Additional observations from a re-analysis of the deposited data

How the results depend on the processing

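The number of the 7 RNAs called in the group comparisons was 0 in each alternative run, except 1 (Neat1, EnzR EV against PBS, log2 fold change 0.71, adjusted p = 0.0279) with sample quality weights in limma's voom. The 3 libraries rich in Rn45s are also the shallowest, EnzR EV 1 held 7 counts of Snhg1 and 8 of Snhg3, and these limit what the slopes and the EnzR EV comparisons show. Apart from fits that left out 1 library, and counting each RNA under each alternative, log2 fold changes kept their direction and side of the threshold in 71 cases and reversed in 5 for EnzR EV against PBS, in 75 and 2 for EnzR EV + HDL NP against PBS, and in 70 and 7 for EnzR EV + HDL NP against EnzR EV. The causes of these changes were not tested.

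For EnzR EV against PBS, the genes called, 0 by edgeR, were 8 by DESeq2, 1990 with sample quality weights, 10 without the 3 libraries rich in Rn45s, and 1 each without a filter, with the Rn45s share as a covariate and with the replicate number as a block. For EnzR EV + HDL NP against PBS they were 7 by DESeq2 and 10 with quality weights. For EnzR EV + HDL NP against EnzR EV they were 653 with quality weights and 1 each by DESeq2, in a fit to the 6 libraries compared and without the 3 libraries.

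Log2 fold changes that reversed were, without the 3 libraries rich in Rn45s, those of Malat1 (-0.10), Neat1 (-0.40) and Snhg3 (-0.17) for EnzR EV against PBS, and of Snhg3 (0.0040) and Snhg5 (0.25) for EnzR EV + HDL NP against EnzR EV. With quality weights they were Kcnq1ot1 (-0.0046, EnzR EV + HDL NP against PBS), and Neat1 (-0.20) and Snhg5 (0.035, EnzR EV + HDL NP against EnzR EV). Snhg5 against EnzR EV was also 0.023 with limma's voom, 0.093 with library size only and 0.34 with the Rn45s share as a covariate. For EnzR EV against PBS it was -0.012 with library size only and -0.036 with the covariate, and for EnzR EV + HDL NP against PBS -0.0029 with upper quartile factors.

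Replicate numbers are shared between groups but were not taken as pairs, since the deviations of same-numbered libraries had correlations of -0.18 to 0.49 (mean 0.17, 9 pairs) and others a mean of -0.08 (18 pairs), and not every library correlated best with one of its own number. With the number as a block, the slope of Snhg5 was 0.095 (adjusted p = 0.293 in edgeR), that of Kcnq1ot1 was -0.0028, and 1092 genes and 1 of the 7 RNAs were called with the Rn45s share, in place of 3439 and 2.

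In the 6 libraries with the lowest Rn45s shares, 3 genes and 0 of the 7 RNAs were called with the share, and the slopes were -0.18 for Snhg1, -0.024 for Snhg5 and 0.54 for Snord22, whose alternatives were added after seeing the data. With library size only, the slope of Snhg5 was 0.11 and 1 of the 7 was called. Without a group term, that of Snhg3 was 0.019.

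When each library was left out in turn, genes called ranged from 0 to 2 for EnzR EV against PBS (2 without PBS 1), from 0 to 1 for EnzR EV + HDL NP against EnzR EV (1 without PBS 1), and from 800 (without EnzR EV 2) to 3767 with the Rn45s share (2193 without PBS 1), and from 0 (without EnzR EV 2) to 2 of the 7 RNAs were called with the share. Log2 fold changes for EnzR EV against PBS ranged from 0.21 to 0.53 for Malat1, 0.22 to 0.79 for Neat1, -0.58 to -0.19 for Gas5, -0.73 to -0.13 for Snhg1, 0.024 to 0.37 for Snhg3, -0.15 to 0.48 for Snhg5 and -0.26 to -0.0080 for Kcnq1ot1. For EnzR EV + HDL NP against PBS they ranged from 0.26 to 0.67 for Malat1, 0.36 to 0.68 for Neat1, 0.056 to 0.24 for Gas5, 0.091 to 0.54 for Snhg1, -0.19 to 0.055 for Snhg3, -0.19 to 0.30 for Snhg5 and -0.086 to 0.45 for Kcnq1ot1. For EnzR EV + HDL NP against EnzR EV they ranged from -0.081 to 0.33 for Malat1, -0.24 to 0.33 for Neat1, 0.36 to 0.75 for Gas5, 0.48 to 1.01 for Snhg1, -0.45 to -0.11 for Snhg3, -0.42 to 0.16 for Snhg5 and 0.0096 to 0.54 for Kcnq1ot1. Those of the other genes named, each library left out in turn, were added after seeing the data. Slopes ranged from -0.22 to -0.17 for Snhg1, from 0.12 to 0.20 for Snhg5, from 0.019 to 0.22 for Neat1, from -0.078 to 0.025 for Gas5 and from -0.094 to 0.040 for Snhg3.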

Other observations

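Of the counted genes whose names begin with Snord, Snora or Scarna, 119 in all, 49 were tested against the Rn45s share, a set chosen after Snord22 was seen. Slopes were above 0 for 35 of the 49, 21 rose and 0 fell by edgeR's quasi-likelihood test with Benjamini-Hochberg adjustment, beside 12.8% and 14.6% of all genes, and the median slope was 0.22 beside -0.01 over all genes. Snord15b (slope 0.96, adjusted p = 3.32e-07) and Snord15a (1.10, adjusted p = 6.57e-06) led the set in the same test.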
